A study of Homo sapiens with 8 samples.

Results

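A set of 44 interferon-stimulated genes was followed in HMLE cells, an immortalised line of human mammary epithelial cells. The genes were taken by symbol as a named set, with no threshold on measured values though with earlier results of these data known, and all 44 were found once among the 36601 genes of the count matrices. Interferons bind receptors at the cell surface, whose kinases phosphorylate STAT proteins. A factor that contains STAT2 and IRF9 then binds a short promoter element, the interferon-stimulated response element (ISRE), and switches on genes that hinder viruses. Epithelial cells answer type I interferons (interferon beta among them) and type III interferons (the lambda family) through the same factor, and sensors of foreign or displaced nucleic acid such as RIG-I can start the response by inducing interferon itself.

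The series follows the epithelial-to-mesenchymal transition (EMT) that TGF-β induces in this line, in the presence and absence of pyridostatin, a ligand of G-quadruplexes, which are folded structures of guanine-rich DNA. Single cells were counted in 4 mRNA libraries by unique molecular identifiers (UMIs), and short barcoded oligonucleotides, SBO01 to SBO12, marked 12 samples of origin. No label states which barcode received which agent or time, so the 12 barcode populations are described by value and range, and no treated and untreated cells were compared. Libraries 1 and 2 both held SBO01 to SBO06, and libraries 3 and 4 both held SBO07 to SBO12. From this they were taken as 2 loads of each of 2 pools, so agreement between loads covers technical spread only.

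The libraries held 139331790 to 179421284 gene UMIs, and 11072 cells with 1 barcode entered the analysis. Of these, 8283 had a clear barcode, meaning at least 10 UMIs of it and 3 times those of the next. SBO12 stood apart in this respect: 93 of its 1227 cells had a clear barcode, and in 774 another barcode had more UMIs. Levels are of all assigned cells unless clear barcodes are named, and the main results are repeated with clear barcodes. Keratins of the line were present in every population, with summed luminal markers of 3084 to 16881 CPM (UMIs of a gene per 1000000 UMIs of all genes). SBO05 had the highest VIM, 3306 CPM against a median of 251, and the lowest KRT5, 73.2 CPM against a median of 563. Of the other mesenchymal markers, CDH2, COL1A1 and ZEB1 were also highest in SBO05, at 42.8, 212 and 5.62 CPM. FN1 and SPARC were instead highest in SBO03, at 3136 and 729 CPM. Among leukocyte markers PTPRC, CD3E, LYZ, FCGR3A and NKG7 were at or below 0.287 CPM in every population, CD14 reached 4.1 and CD68 36.6, and the 4 markers of plasmacytoid dendritic cells, a professional source of interferon, stayed at or below 0.123.

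The promoters of these genes carried the ISRE core far more often than promoters at large. In the RefSeq table of windows from 250 bases before to 50 bases after each gene's start (build GRCh38.p14), 36 of the 44 genes were matched. The core searched was GAAANNGAAA on either strand, where overlapping matches each counted. It occurred in 24 of the 36 windows (66.7%) and in 1255 of all 35116 windows (3.57%). A palindromic STAT dimer motif, TTCNNNGAA, occurred in 10 of the 36 (27.8%) and in 7.66% of all windows, and the 2 motifs may overlap. The following stretches show the match farthest upstream in 7 genes described later, written on the strand of the gene with matches to the core in capitals (TTTCNNTTTC where the match is on the other strand), and all lie before the RefSeq start.
ISG15, plus strand, chr1:1013369-1013408: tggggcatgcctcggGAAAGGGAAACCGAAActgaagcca
IFIT1, plus strand, chr10:89392492-89392531: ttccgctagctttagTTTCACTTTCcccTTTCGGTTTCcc
IFI6, minus strand, chr1:27672324-27672363: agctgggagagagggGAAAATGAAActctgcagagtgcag
IFI27, plus strand, chr14:94110613-94110652: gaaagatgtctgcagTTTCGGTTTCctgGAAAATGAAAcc
HERC5, plus strand, chr4:88456979-88457018: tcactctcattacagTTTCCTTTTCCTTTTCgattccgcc
DDX60, minus strand, chr4:168318816-168318855: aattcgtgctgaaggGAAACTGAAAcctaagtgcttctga
SAMD9, minus strand, chr7:93118091-93118130: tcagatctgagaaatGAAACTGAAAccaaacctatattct
A match is a run of letters, not a measured binding site. RSAD2, the member that changed most between index tiers in what follows, had no match in its window, and LGALS3BP, which changed least, had 1. The RSAD2 window does hold the run ggaaacgaaa, which differs from the core searched by 1 letter. The windows of DDX58 and OAS1, also without a match, hold the same run. A window without a match to this strict pattern can therefore still carry a similar element.

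The 44 genes rose and fell over the 12 populations almost as a block. Their summed level was lowest in SBO12, at 1889 CPM in 1 load and 1916 in the other. SBO01 followed with 2327 and 2365, and SBO05 with 2644 and 2342, so that these neighbours overlapped. SBO09 had 2911 and 2962 CPM and SBO10 had 3177 and 2830, which also overlapped. Next came SBO11 with 4356 and 4505, SBO06 with 5929 and 5140, and SBO08 with 6181 and 6051, each separate from the one below. SBO02 had 7145 and 7155 CPM. SBO07, with 8335 and 7681, overlapped SBO03, with 7970 and 8791, and SBO04 was highest with 8895 and 9406. Cells with a clear barcode gave 1548 CPM in SBO12, 3893 in SBO11, 7666 in SBO02 and 9429 in SBO04. Both pools held populations at the low and at the high end.

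**Figure D1:**
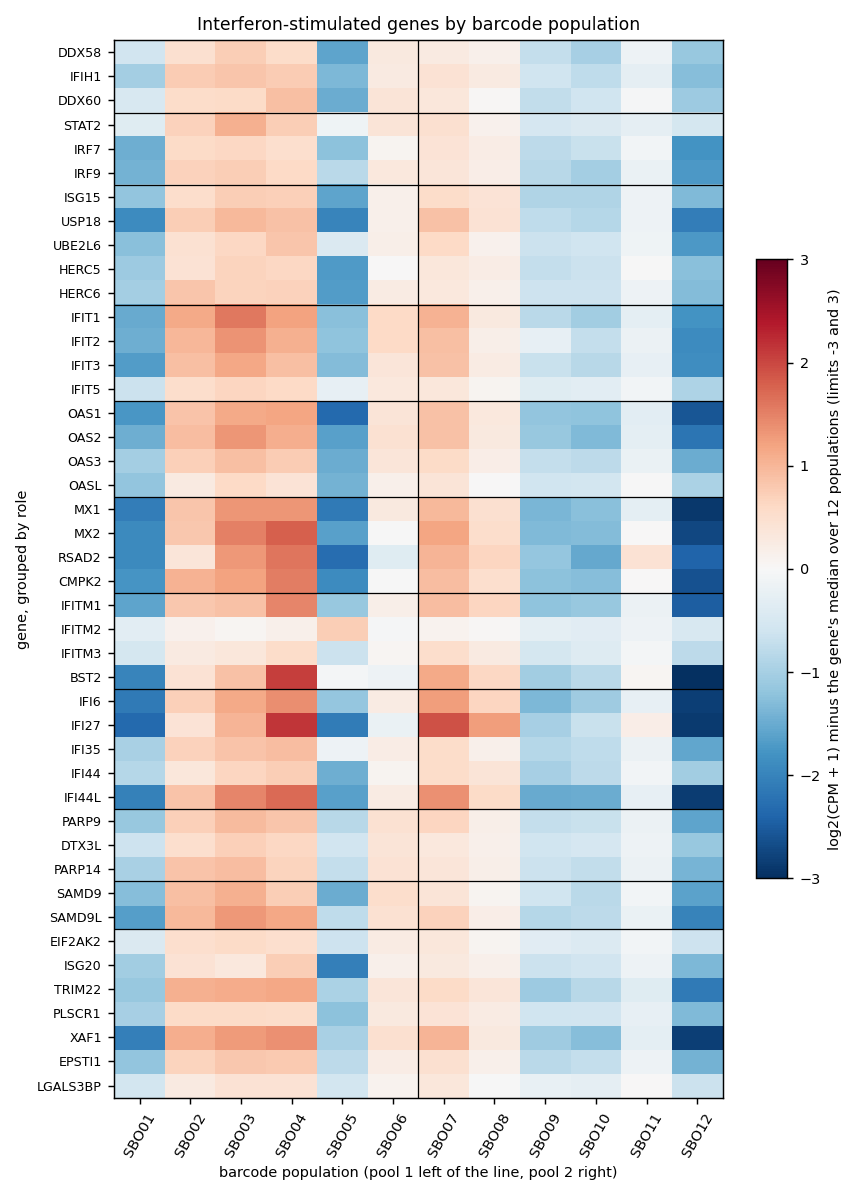
Rows are the 44 genes grouped by role and columns the 12 barcode populations; colour is log2(CPM + 1) minus the gene's own median over the populations, red above and blue below. Columns SBO02, SBO03, SBO04 and SBO07 are red and SBO01, SBO05 and SBO12 blue for nearly every gene, and IFITM2 is the row that is highest in SBO05.

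Gene by gene, the range between the lowest and the highest population had a median of 2.51 on the log2(CPM + 1) scale, from 1.08 for LGALS3BP to 5.05 for BST2. Over the 6097 genes whose mean reached 20 CPM the median range was 0.50, and 5.61% spanned 2 or more, against 32 of the 39 members above that level. The highest level was in SBO03 for 25 members and in SBO04 for 17. The lowest was in SBO12 for 34 and in SBO05 for 10. With only clear barcodes these counts were 15 in SBO03, 18 in SBO04 and 10 in SBO02 for the highest, and 39 in SBO12 for the lowest. Without SBO12 the median range was 2.37, and SBO01 and SBO05 each held the lowest level of 21 members. The typical difference between 2 loads of a population was 0.16, the median over members.

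Among the sensors, DDX58 (RIG-I, a sensor of uncapped RNA ends; ENSG00000107201) was at 17.2 CPM in SBO05, at a median of 54.1 and at 90.4 in SBO03. IFIH1 (MDA5, a sensor of long double-stranded RNA) ran from 14.7 in SBO05 over 39.9 to 70.9 in SBO03, and DDX60, a helicase linked to RIG-I signalling, from 10.7 in SBO05 over 31.9 to 60.1 in SBO04. All 3 had their lowest value in SBO05 rather than in SBO12, but with clear barcodes this held for DDX58 alone: IFIH1 was then at 14.4 in SBO05 and 13 in SBO12, and DDX60 at 10.4 and 9.35. Of the transcription factors, IRF7, which amplifies interferon production, ran from 21.0 in SBO12 to 114 in SBO03, and IRF9 from 17.2 to 98.7 in the same populations. STAT2, the partner of IRF9, moved least of the 3, from 7.49 in SBO12 to 24.5 in SBO03.

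The ISG15 system attaches the ubiquitin-like protein ISG15 to other proteins. ISG15 itself was at 125 CPM in SBO05, at a median of 377 and at 631 in SBO03. USP18, which removes ISG15 and restrains the receptor, ran from 4.48 in SBO12 to 44.3 in SBO03, and the ligase HERC5 from 10.3 in SBO05 to 57.4 in SBO03. With clear barcodes the lowest levels of ISG15 and HERC5 were in SBO12, at 90.4 and 7.65. Its relative HERC6 ran from 7.48 in SBO05 to 47.0 in SBO02, the 1 member with its highest level there. UBE2L6, the conjugating enzyme, was lowest in SBO12 at 37.2 and highest in SBO04 at 225, but in SBO05 it stood at 93.4, above SBO01 at 52.5.

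In the IFIT family, which binds foreign RNA, IFIT1 ran from 29.9 CPM in SBO12 over a median of 109 to 321 in SBO03, IFIT2 from 26.1 to 253 and IFIT3 from 26.1 to 219. IFIT5 had a smaller range, from 14.1 to 44.1. The OAS enzymes make the messenger that activates RNase L. OAS1 spanned 3.75 on the log2 scale and OAS2 3.5, against 2.40 for OAS3 and 2.02 for OASL, a relative without the enzyme activity. MX1, a GTPase that blocks viruses, was at 28.5 in SBO12 and at 548 in SBO03, and its relative MX2 at 0.662 and, in SBO04, at 36.9. RSAD2 (viperin) and CMPK2, neighbours on chromosome 2 whose annotated ends overlap, ran from 2.79 to 60.8 and from 1.76 to 48.1 CPM. In the 93 SBO12 cells with a clear barcode IFIT1 was at 8.21 CPM, IFIT2 at 5.66, MX1 at 20.4, and RSAD2 and CMPK2 at 0.283 each, so that the lower ends of these spans rest on how barcodes were called.

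The widest spans on the log2 scale were those of BST2 (5.05), IFI27 (5.01), IFI44L (4.55) and MX2 (4.51). IFI27, a mitochondrial protein gene on chromosome 14, was at 26.4 and 14.2 CPM in the 2 loads of SBO12, at 707 and 666 in SBO04 and at 590 and 576 in SBO07. BST2 (tetherin, which holds budding viruses at the membrane; chromosome 19, 17402939 to 17405648, minus strand) was at 4.18 and 2.41 in SBO12 and at 129 and 154 in SBO04. The loads of SBO04 did not overlap those of any other population for either gene. IFI6 ran from 54.0 to 1025 CPM, IFI44L from 2.33 to 77, IFI44 from 15.8 to 76.5 and IFI35 from 14.8 to 87.0. Clear barcodes widened the span of IFI27, to 6.8 CPM in SBO12 against 731 in SBO04, and that of BST2, to 0.85 against 141. The SBO12 values with clear barcodes rest on 93 cells, and that of BST2 lay below the 1 CPM added to log2 levels.

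The remaining members spanned less or were at lower levels. PARP9 and its partner DTX3L, divergent neighbours on chromosome 3 whose annotated ends overlap, ran from 13.3 to 80.4 and from 10.5 to 40.3 CPM, and PARP14 from 18.4 to 95.9. SAMD9 ran from 37.1 to 244 and its neighbour SAMD9L from 2.60 to 35.1. EIF2AK2 (PKR, a kinase that halts translation) ran from 88.3 in SBO05 to 206 in SBO03, ISG20, an exonuclease, from 10.6 to 80.2, and TRIM22 from 2.10 to 29.3. PLSCR1 ran from 68.5 to 260, XAF1 from 3.45 to 80.5, EPSTI1 from 24.5 to 117 and LGALS3BP from 158 to 336.

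**Figure D2:**
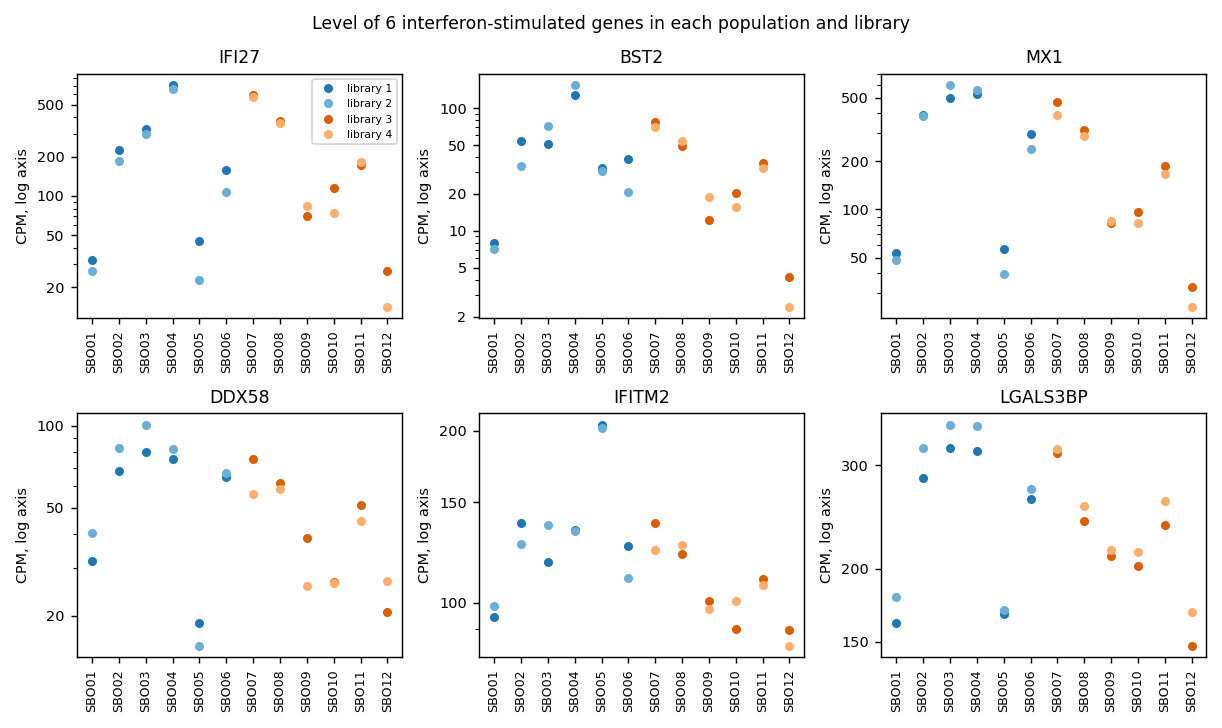
CPM on a log axis in each barcode population and each library that held it, for IFI27, BST2, MX1, DDX58, IFITM2 and LGALS3BP. The 2 loads of a population differ by at most 0.95 log2 for IFI27 and 0.85 for BST2, and by at most 0.58 for the other 4 genes; IFITM2 peaks in SBO05, DDX58 is lowest there, and BST2 is far higher there than in SBO01 and SBO12.

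By Pearson's correlation, 3 members moved least like the others. By the rule used, each gene's log2 level over the 12 populations was correlated with the mean of the other 43; populations of a pool share their libraries, and no p is given. Pearson's r was at least 0.9 for 41 members, with a median of 0.979. It was 0.34 for IFITM2, 0.89 for BST2 and just under 0.90 for STAT2. By ranks (Spearman's correlation) IFITM2 was at 0.65 and STAT2 at 0.895, while BST2, at 0.902, was level with DDX58 and DDX60. IFITM2, whose protein blocks viral entry from endosomes, was highest in SBO05 at 205 and 202 CPM in the 2 loads, above SBO04 at 134 in each, and lowest in SBO12 at 89.7 and 84.0. Its paralogs did not share this peak: in SBO05 IFITM1 was at 69.8 CPM against 432 in SBO04, and IFITM3 at 769 against 1761. The annotated IFITM2 gene (chromosome 11, 307631 to 315272, plus strand) contains IFITM1, and the 3 coding sequences are close copies, so the share of reads placed on each depends on the authors' counting.

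SBO05, the population with the highest VIM, and SBO01 had nearly the same summed level, yet some members differed between them. In SBO05 BST2 was higher than in SBO01 by 1.93 on the log2(CPM + 1) scale, XAF1 by 1.07, IFITM2 by 1.07 and IFI6 by 0.96, while ISG20, DDX58 and DDX60 were each lower by about the same amount, at log2 differences of -1.02. Thus 3 of the 44 members were higher and 3 lower by at least 1, against 2.33% and 5.58% of the 6097 genes. The share that was lower was near that of all genes, and the median member differed by 0.12. With clear barcodes the even count became 5 higher (BST2 by 2.48, XAF1 by 1.67, IFI6 by 1.39, SAMD9L by 1.13 and IFITM2 by 1.12) and 0 lower, with DDX58 at -0.89, DDX60 at -0.86 and ISG20 at -0.73. Between SBO04 and SBO03, at the top, 2 members differed by at least 1, BST2 by 1.20 and IFI27 by 1.13, both higher in SBO04, where 0.0492% of all genes were higher by as much. The lowest difference there was that of IFIT1, at -0.38. IFI27 was the member most raised in SBO07 relative to SBO03, by 0.89, and SAMD9 the most lowered, with a difference of -0.69.

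Within each population single cells differed widely. After each cell was thinned to 10000 UMIs, which 10233 cells reached, the 44 genes together had a median of 14 UMIs per cell in SBO12, with 5th and 95th percentiles of 7 and 49. In SBO05 the median was 19 (9 to 54) and in SBO01 17 (8 to 60). It was 68 (19 to 214) in SBO03, 75 (15 to 228.4) in SBO04 and 67 (20 to 188.55) in SBO07. The lowest cells of the high populations thus overlapped the middle of the low ones, and the highest cells of SBO01 reached the middle of SBO02, where the median was 55. With clear barcodes the medians were 13 in SBO12, 17 in SBO01 and 61 in SBO02. The means went from 19.3 to 15.2, from 23.7 to 21.4 and from 72.5 to 78.1. Percentiles were not taken with clear barcodes, and the part of doubtful barcodes in the tails was not tested.

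**Figure D3:**
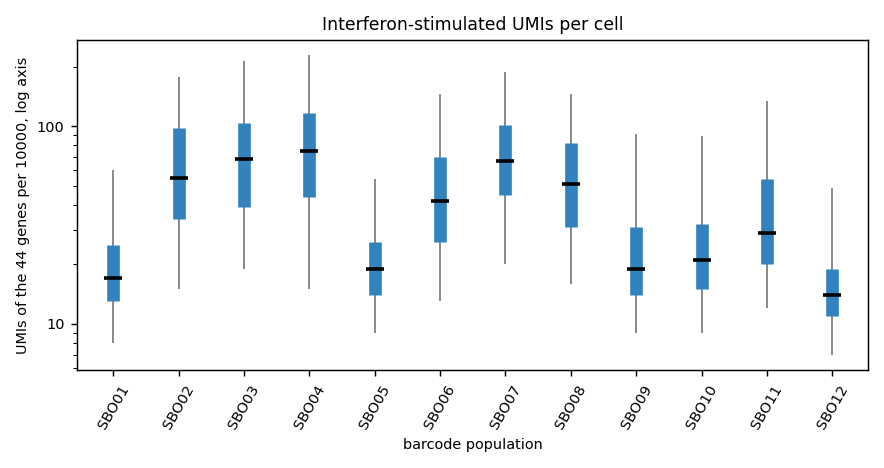
UMIs of the 44 genes per 10000 UMIs in single cells of each barcode population, on a log axis; the black mark is the median, the thick bar spans the 25th to 75th percentile and the line the 5th to 95th. Medians run from 14 in SBO12 to 75 in SBO04, and the distributions overlap.

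Shares of thinned cells with at least 1 UMI followed the levels. IFI27 was seen in 77.8% of SBO07 cells (exact 95% binomial interval 74.7 to 80.7, counting error only) and in 7.47% of SBO12 cells (6.04 to 9.12), and BST2 in 44.9% of SBO04 cells (39.2 to 50.7) and 2.52% of SBO12 cells (1.71 to 3.58). Without thinning these shares, in the order given, were 88.0, 16.5, 53.4 and 6.11%. The SBO12 shares are of all its 1191 thinned cells, of which 91 had a clear barcode. With clear barcodes the SBO12 level went from 20.3 to 6.8 CPM for IFI27 and from 3.29 to 0.85 for BST2. The shares were not recounted with clear barcodes. RSAD2 was seen in at most 20.5% of thinned cells of a population (16.1 to 25.4 in SBO04, where 31.2% had one unthinned), and MX2 in at most 22.1% (17.6 to 27.2 in SBO04, where 36.9% had one unthinned). The line holds no cell type that should lack these genes, so the share that free RNA gives was not measured.

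From cell to cell, the correlation of a gene with the sum of the other 43, taken within each population and then as the median over the 12, was highest for IFI6 at 0.72, ISG15 and MX1 at 0.70, IFITM1 at 0.65 and IFIT1 at 0.62. It was lowest for IFIT5 at 0.15, STAT2 at 0.18, DTX3L at 0.19, IFITM2 at 0.23, LGALS3BP at 0.27, HERC6 at 0.27 and EIF2AK2 at 0.28. A low correlation did not always go with few UMIs: IFITM2 and LGALS3BP had 1.28 and 2.29 UMIs per thinned cell and STAT2 0.121, while RSAD2, at r = 0.42, had 0.173. The pairs with the highest correlation were IFIT3 with IFIT1 (0.67), IFIT3 with IFIT2 (0.64) and IFI6 with IFITM1 (0.62). OASL paired best with IFIT3 (0.58), and IFI27 with IFI6 (0.58). Cells of a population share a library and thinned depth, and these values are descriptions.

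To test which members follow the response between cells of the same population, cells were ranked by an index of 6 members (IFIT1, IFIT2, IFIT3, MX1, ISG15 and OAS1) and cut into low, middle and high tiers of equal size within each population and library. The 6 were not tested. All 38 other members were higher in the high tier in edgeR's quasi-likelihood test over the 4 libraries, and none was lower, where 13.7% of the 15294 genes tested were called higher and 15% lower. The median change of the 38 was 2.06 on the log2 scale, against a median near 0 for all genes, and the 38 were higher in each of the 12 populations (34 of 38 in SBO12 with clear barcodes). The largest edgeR adjusted p among them was 8.13e-13. The index was itself built from members, so these calls describe how the other genes go with it.

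The sizes differed greatly. RSAD2 was at 1.23, 1.16, 1.5 and 1.11 CPM in the low tier of libraries 1 to 4 and at 37.7, 48.0, 53.0 and 47.0 in the high tier, an edgeR log2 change of 5.18 ± 0.096 (SE, adjusted p = 3.37e-22). The tiers did not overlap. MX2 changed by 4.30, CMPK2 by 3.90, OASL by 3.89 and IFI44L by 3.48. At the other end LGALS3BP was at 186, 195, 185 and 201 CPM in the low tier and at 258, 283, 250 and 273 in the high tier, a log2 change of 0.45 ± 0.022 (SE, edgeR adjusted p = 8.99e-14), again without overlap. IFITM2 changed by 0.48, EIF2AK2 by 0.66, IFIT5 by 0.80 and IFITM3 by 0.83, the other members under 1.

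By role, the sensors DDX58, DDX60 and IFIH1 changed by 2.57, 2.26 and 2.01, more than the factors IRF7, IRF9 and STAT2 at 1.52, 1.37 and 1.25. Within the ISG15 system HERC5 (2.84) and USP18 (2.61) were well above HERC6 (1.62) and UBE2L6 (1.34). The OAS family was spread from OASL (3.89) and OAS2 (2.89) to OAS3 (1.56). BST2 changed by 2.57, IFITM1 by 2.40 and XAF1 by 2.69. TRIM22 changed by 2.84 and SAMD9L by 2.55, its neighbour SAMD9 by 1.73. The rest lay between PLSCR1 at 1.18 and IFI44 at 2.48, apart from DTX3L at 1.04.

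**Figure D4:**
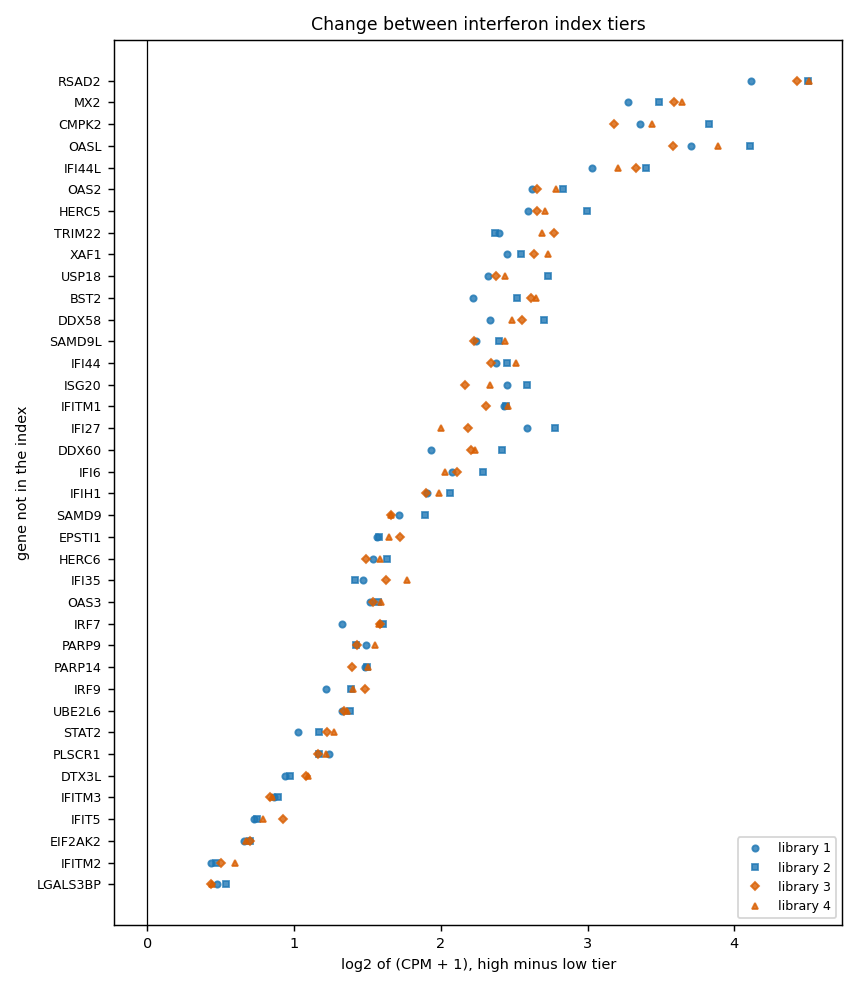
Change of the 38 genes outside the index between the high and the low tier of the interferon index, log2 of (CPM + 1), 1 point per gene and library (blue pool 1, orange pool 2). Every point lies above 0, from LGALS3BP at the bottom to RSAD2 at the top, and IFI27 is the gene whose pools separate.

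One member changed by a different amount in the 2 pools. IFI27 rose from 43.5 to 266 CPM in library 1, from 34.9 to 246 in library 2, from 81.3 to 372 in library 3 and from 93.7 to 378 in library 4. Its change in pool 2 minus that in pool 1 was -0.64 (edgeR interaction test, adjusted p = 4.62e-07), with the low tiers of pool 2 above those of pool 1. Of all genes, 0.968% passed that test. Tiers differed in other respects. The median UMI count per cell was lower in the high tier in all 4 libraries, 23163 against 23735 in library 1 for example. Summed mesenchymal markers were higher there in each library, 3011 against 2913 CPM in library 1 and 1747 against 1294 in library 4. So were summed basal and luminal markers, at 4799 against 4449 and 14150 against 13889 CPM in library 4. Summed leukocyte markers were higher too, 12.7 to 23.0 CPM in low and 18.4 to 30.3 in high tiers, with 2 of the 8 above 1 CPM. The part of these in the result was not tested.

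The lists of other pathway genes are read against the 13.7% of all genes called higher, and differences between lists were not tested. Of the receptors and their kinases 3 of 9 rose, IL10RB by 0.13, JAK1 by 0.11 and JAK2 by 0.67 (4.69 to 7.62 CPM), while IFNAR1, IFNAR2 and IFNLR1, the binding chains, stood at 39.9 and 42.0, 19 and 19.5, and 5.63 and 6.36 CPM in the low and high tier. Of sensors and adaptors outside the set 8 of 11 rose, among them DHX58 and IFI16, and IRF3, MAVS and TBK1 did not pass. Of factors and feedback genes 10 of 12 rose, IRF1 by 0.93 and SOCS1 by 0.76. All 13 class I antigen presentation genes rose, with HLA-B at 1.26 and B2M at 0.79, as did all 34 measured further interferon-stimulated genes, whose median was 1.17. None of these lists had a gene that fell. Outside the members CCL5, a chemokine, rose most at a mean of 20 CPM or more, from 0.876 ± 0.464 to 52.0 ± 7.35 CPM (SD, n = 4), followed by PLAAT4 (2.41), IGFL1 (1.60), GBP1 (1.52), C15orf48 (1.51), HELZ2 (1.42), ZNFX1 (1.36), LCN2 (1.32), SP110 (1.31) and HLA-B. The falls were smaller, from -0.42 for ACO1 to -0.51 for HIST1H2AH, and between them lay PTHLH, KCNMA1, CPA4, FST, NT5DC2, TNFRSF6B, ODC1 and DANCR.

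Transcripts of interferon beta and lambda were rare and held by few cells. IFNB1 (interferon beta) had 225 UMIs in the 11072 cells and IFNL1, IFNL2 and IFNL3 (interferon lambda) had 611, 42 and 45. IFNA1 and IFNG were at 0. IFNE and IFNK, at medians of 0.305 and 0.12 CPM over the populations, were not counted per cell. No UMI of IFNB1, IFNL1, IFNL2 or IFNL3 was found in 10971 cells, while 27 cells with at least 5 held 816 of the 923 UMIs (88.4%). The 27 cells came from 10 populations, 5 each from SBO04 and SBO08, and 25 had a clear barcode. Members took a median of 167 UMIs per 10000 in them (5th to 95th percentile 72.9 to 382), against 25.6 (10.1 to 134) in the cells with none and 114 in the 55 cells with 1. These cells were pooled over populations of unlike member level. SBO01, SBO05 and SBO12 gave 1710, 1860 and 1220 of the cells with none, and 2, 1 and 1 of the 27. Depth differed too, with median UMIs of 28486 in the cells with none and 34656 in the 27. The part of both in the gap was not tested. Between index tiers IFNL1 rose from a mean of 0.00922 to 5.72 CPM and IFNB1 from 0.0645 to 2.02, with the low tier at 0 in 3 of the 4 libraries for each. Because the UMIs come from so few cells, population levels of these genes rest on a handful of cells: IFNL1 was highest in SBO04 at 9.66 CPM, where 5 such cells lay, and lowest in SBO05 at 0.145, where 1 lay. The limit of 5 UMIs was chosen after the values were seen.

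The study is about EMT, and the same construction was used with a score of 12 mesenchymal minus 12 epithelial genes, none of them a member. From low to high tier, summed basal markers, some in the score, fell from 5114 to 2699 CPM in library 1 and from 6182 to 2907 in library 3. Summed luminal markers went from 10699 to 9191 and from 13297 to 13439, and mesenchymal ones from 2456 to 3613 and from 1152 to 1872. The part of each in what follows was not tested. In the pooled test 17 of the 44 genes were lower in the high, more mesenchymal tier and none was higher (0 also at an unadjusted p under 0.05 and in DESeq2), where 14.1% of 15257 genes were called lower and 13.8% higher. The median member changed by -0.11. TRIM22 fell by 0.40 on the log2 scale, SAMD9 by 0.32, OAS1 by 0.28, DDX58 and IFIT2 by 0.22 and 0.21. For SAMD9 the low tiers were at a mean of 115 ± 17.8 CPM and the high tiers at 91.7 ± 11.8 (SD, n = 4), and it was lower in all 4 libraries (edgeR adjusted p = 3.05e-08). IFIT5, UBE2L6, IFI44L, HERC5, CMPK2 and IFITM2 had estimates at or just above 0 and did not pass. The count rested on the construction: it was 7 without library 2 and 22 without library 3, 9 with DESeq2, 0 in edgeR without the library term (9 at an unadjusted p under 0.05), and 0 when tiers were cut over whole libraries (0 unadjusted), where BST2 was the 1 member called, higher by 0.56 (edgeR adjusted p = 0.0485).

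Beneath the pooled value the populations went different ways. In SBO05 the median member was lower in the more mesenchymal cells, by a log2 difference of -0.62, and 41 of 44 were lower. IFI27 there was at 73.5 CPM in the low and 12.9 in the high tier, OAS1 at 25.2 and 4.30, and MX1 at 88.5 and 28.9, while IFITM2 went the other way, from 179 to 237. SBO04 and SBO02 also had lower medians, at -0.30 and -0.28. SBO07 and SBO08 had medians of -0.04 and -0.01. In SBO01 the median was 0.41 and 37 of 44 members were higher, with IFI27 at 11.7 and 53.3 CPM. SBO09 had 0.31 with 36 higher, and SBO12 0.18 with 30. In cells with a clear barcode SBO11 had a median of -0.55 with 1 of 44 higher (-0.24 with 9 in all its cells), as low as SBO05 at -0.54 with 4 higher, and SBO02 was at -0.42. SBO01 came to 0.14 with 29 higher, but SBO09 and SBO12 changed sign, to -0.11 and -0.42. SAMD9 and PLSCR1 were lower in all 12 populations among clear barcodes. The differences between populations were not tested, since each is 1 sample in 2 loads.

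**Figure D5:**
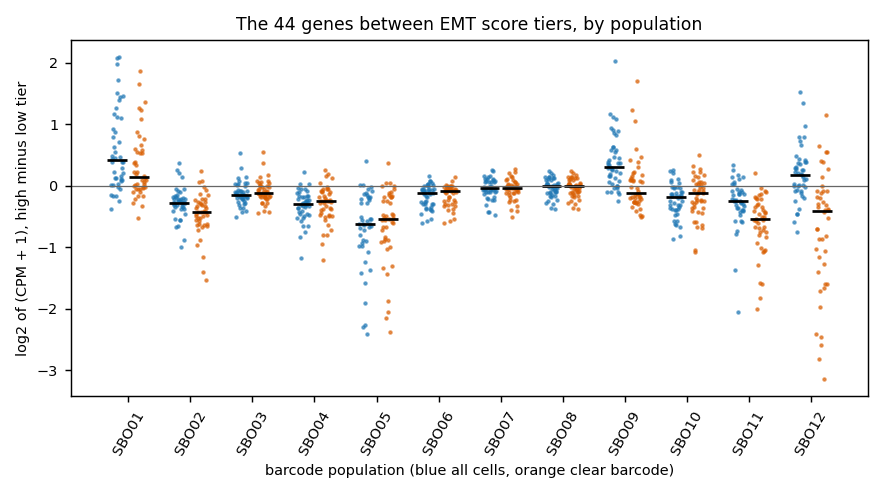
Change of each of the 44 genes between the high and the low tier of the EMT score in each barcode population, log2 of (CPM + 1), 1 point per gene, black lines at the medians; blue all assigned cells, orange cells with a clear barcode. Medians lie at -0.62 in SBO05 and 0.41 in SBO01 for all cells, and those of SBO09 and SBO12 change sign with clear barcodes.

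For the other pathway lists the background is again 14.1% of all genes lower and 13.8% higher. Among the lists, 9 of 34 further interferon-stimulated genes, 7 of 13 class I genes, 6 of 12 factors and 6 of 11 sensors fell, and 0, 1, 1 and 0 rose. Of the 9 receptors and kinases 1 fell, a share near the background, and none rose, and of the 2 interferons that could be tested 1 fell. In addition, 5 members changed by different amounts in the 2 pools in the edgeR interaction test, which 1.45% of all genes passed. DDX60 was lower in the high tier in libraries 1 and 2, at log2 changes of -0.25 and -0.47, and stood at -0.03 and 0.19 in libraries 3 and 4. IFI27, IRF9 and IFITM1 shared that order, and IFITM2 had the opposite one, with 0.18 and 0.07 in pool 1 and -0.08 and -0.06 in pool 2. SBO05 is in pool 1, and without it 16 members were still called lower in the pooled test and none higher.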

How the data were processed

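UMI counts per gene and cell were deposited by the authors as 1 matrix per mRNA library; the sample barcode counts lie in the same matrices. The submitters' processing notes name Seurat 4.1.0, Cell Ranger 6.0.2, the build hg38 and bcl2fastq 2.20.0.422; the annotation release is not given in the sources used here. The kit reads 5′ ends, so isoforms sharing a start are counted together. Gene positions are from Gencode 29.

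Of 26247 cells, the 22147 with 1000 or more genes and no more than 15% mitochondrial UMIs were kept; 899 cell barcodes were shared between libraries and counted as separate cells. Median UMIs per kept cell were 22198.5 to 38051 by library. HTODemux (Seurat 5.3.0, positive quantile 0.99) ran within each library on the barcodes that led in at least 1% of its cells. It called 5510 doublets and 5565 negatives, which were left out; no other doublet caller was run. Levels are CPM of summed UMIs, and log2 levels add 1 CPM. Scores are mean standardised log values of cells thinned to 10000 UMIs. UMIs were summed per library and tier (12 sums) and tested with edgeR 4.0.16 (filterByExpr, TMM, quasi-likelihood test, library as a block, Benjamini-Hochberg adjustment over all genes, false discovery rate 0.05); scripts were tested on simulated data. The 4 libraries are taken, from their barcodes, as 2 loads of each of 2 pools. With the library block, p-values are set against how tier changes vary between loads and pools, not against spread between cultures. The block is the library, whose 3 tiers share 1 preparation. Of the cells, 38.6% lay within 0.1 of a tier boundary of the index and 37.3% of one of the EMT score. The deposited table of barcode sequences was not used.

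The 44 genes and all lists were chosen with earlier results of these data known. Named were all members, the pathway lists, and the 10 genes outside the set with the largest rise and the 10 with the largest fall between index tiers (mean at least 20 CPM, the same sign in 4 libraries). Alternatives covered normalisation, filters, thinning, barcode calls, tier construction and left-out libraries; SBO05 and SBO12 were left out in alternatives chosen after seeing the data.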

Additional observations from a re-analysis of the deposited data

Results flagged for a closer look

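In total, 6 results differed between the 2 pools in edgeR's interaction test. For IFI27 the rise between index tiers was smaller in libraries 3 and 4 than in 1 and 2, by a log2 difference of -0.64 (adjusted p = 4.62e-07). Between EMT score tiers the change in libraries 3 and 4 minus that in 1 and 2 was 0.44 for DDX60 (edgeR adjusted p = 0.00757), 0.41 for IFI27 (0.00781), 0.29 for IRF9 (0.0167), 0.28 for IFITM1 (0.0314) and -0.20 for IFITM2 (0.0314). The pools hold different samples and were loaded separately, and which of these goes with the difference cannot be told apart.

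One value stood apart from the other 3 libraries by Dixon's ratio: IRF7 rose by 1.33 between index tiers in library 1, against 1.58 to 1.60 in the others. Chance marks about 1 in 20 such groups.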

How the results depend on the processing

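All 38 tested members were called higher between index tiers under every alternative run, 32 of 32 with an index of 6 other members. Genes called higher and lower, 2091 and 2297, were 1553 to 1832 and 1810 to 2026 with a library left out. Without the library block (no pairing of tiers) they were 652 and 146, with thinned UMIs 1167 and 1130, with tiers over whole libraries 3492 and 3840, and with DESeq2 1069 higher. Between EMT tiers 2106 genes were higher and 2152 lower. Without the block they were 94 and 317 with 0 members lower, with DESeq2 1092 and 1243 with 9, and with thinned UMIs 1160 and 1205. Upper against lower 0.5 of cells gave 10 members lower, left-out libraries 7 to 22, and tiers over whole libraries 0 lower, 1 higher and 1333 genes lower; IFITM1 reversed there, to 0.0538. Left-out libraries gave 1525 to 1664 genes higher and 1700 to 1829 lower. None of the 17 members called lower kept its call under every alternative; all 17 kept it with clear barcodes and 15 without SBO05. The median range over populations, 2.51, was 2.81 with clear barcodes, 2.77 with the second load of each pool, and 2.26 to 2.51 otherwise. The median correlation over cells, 0.42, was 0.33 at 5000 UMIs. The cause of these shifts was not tested. Depth limits RSAD2, MX2, CMPK2, TRIM22, SAMD9L, STAT2 and USP18, each under 0.2 UMIs per thinned cell.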
